A study of Mus musculus with 10 samples.

Results

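The lung of unirradiated mice was followed over 32 weeks in 5 of the 10 libraries of a study of thoracic irradiation. These are the 5 control libraries, chosen by their label as controls, and no irradiated library entered any value given here. All mice were C57BL/6J, an inbred laboratory strain, and had received 0 Gy as age-matched controls of mice given 12.5 Gy of γ-radiation to the whole thorax. Controls were collected at 24 hours and at 1, 4, 12 and 32 weeks of the study. Their age at the start and their sex are not given in the labels. Each library holds the RNA of 3 mice pooled from a whole-lung cell suspension, so the spread between mice of 1 pool cannot be seen. With 1 pool at each time, the age of the mice, the day of collection and the library cannot be told apart. The pools of 24 hours and 1 week are called early here, and those of 12 and 32 weeks late.

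An antibody gene is built in a B cell by joining variable segments to a constant gene. A naive B cell uses the constant genes Ighm and Ighd. After contact with antigen, class switching brings the variable region to a later constant gene such as Ighg1, Ighg2b, Ighg2c, Ighg3 or Igha. Plasma cells then secrete large amounts of that product, and the J chain links the units of polymeric IgA and IgM. Lung also holds fibroblasts that make collagen and elastic fibres, mesothelium on its surface, a dense capillary bed, and airways lined by club and ciliated cells. Matrix synthesis is high while a lung grows and low in the adult.

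The IgG constant genes lie side by side on chromosome 12 and resemble each other. Over their transcripts, Ighg2b and Ighg2c shared 86.4% of aligned bases, and the other pairs of IgG genes shared 74.5% to 77%. A fragment from a shared stretch may therefore have been assigned to a neighbouring gene. Their hinge exons, which join the arms of the antibody to its stem, are shown because Ighg2b was the 1 gene that passed a test here and its neighbours are set beside it. All are exon 2 on the minus strand of GRCm38, written 5′ to 3′ as the transcript reads, with the in-frame cysteine codons in capitals.
Ighg3, chr12:113360529-113360576: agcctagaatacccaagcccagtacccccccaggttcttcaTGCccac
Ighg1, chr12:113329844-113329882: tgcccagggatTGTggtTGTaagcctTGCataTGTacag
Ighg2b, chr12:113307261-113307326: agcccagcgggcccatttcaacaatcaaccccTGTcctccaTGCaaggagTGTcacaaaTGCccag
Ighg2c, chr12:113288263-113288325: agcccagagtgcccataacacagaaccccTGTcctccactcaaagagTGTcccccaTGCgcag
The 4 hinges hold 1, 4, 4 and 3 such codons in the order printed, and cysteines of a hinge join the heavy chains to each other.

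The 5 libraries held 8679515 fragments at 12 weeks and 14437147 to 17324795 at the other times (14380976 ± 3358269, SD, n = 5). Lung markers were present throughout, with Sftpc of alveolar type 2 cells at 19160 to 32860 CPM, Ager of alveolar type 1 cells at 179 to 326.5 and Cldn5 of endothelium at 74.4 to 172. CPM are counts scaled to a common library total after TMM normalization. Over the 16079 genes tested, pools of 24 hours and 1 week were the closest pair, with a root mean square difference of 0.458 in log2 CPM. The pair of 12 and 32 weeks was the most distant, at 0.653. Of the tested genes, 4.25% differed by 2-fold or more in the closest pair and 10.5% in the most distant. A first principal component holding 34.6% of variance set the 12-week pool (-39.8) against the 4-week (22.2) and 32-week (37.6) pools. A second, with 29.9%, ran in time order except for the last pair, with scores of -30.4, -19.9, -9.3, 32.5 and 27.1. The late pools thus differed from each other more than the early pools did, and a trend over time has to be read against that.

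A straight line in log2 days was fitted to each gene over the 5 pools, and late pools were set against early pools in a second fit. One gene, Ighg2b, rose with time at a Benjamini-Hochberg adjusted p under 0.05 in edgeR's quasi-likelihood test (0.00622% of tested genes). No gene fell (0%). At an unadjusted p under 0.05 there were 645 genes with a positive slope (4.01%) and 322 with a negative slope (2%). Between early and late pools 0 genes passed in edgeR, with 671 higher (4.17%) and 350 lower (2.18%) at an unadjusted p under 0.05 and a smallest adjusted p of 0.139. DESeq2 on the same counts called 58 genes for the slope (44 higher, 14 lower) and 70 between early and late. Without the 24-hour or the 32-week pool the slope called 0 genes, without the 4-week pool 6, and without the 12-week pool the early and late fit called 34. Only Ighg2b is therefore described as changed, and every other gene is given by its values and order.

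Some orders need no model. Both late pools lay above both early pools for 2875 genes (17.9%) and below them for 2765 (17.2%). All 5 pools ascended in time order for 148 genes (0.92%) and descended for 137 (0.852%). Counts of list members are read against these shares. The lists overlap in part, and the median slope of all tested genes was -2e-04 on the log2 scale per doubling of days.

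IgG transcripts were scarce at 24 hours and abundant at 32 weeks. Ighg2b (chromosome 12, 113302965 to 113307933, minus strand), the constant region of IgG2b, was at 2.26, 13.1, 29.4, 37.8 and 180.5 CPM at 24 hours and 1, 4, 12 and 32 weeks. Each pool lay above the one before it, and both late pools lay above both early pools. The values rest on 34, 203, 447, 319 and 3280 fragments. Its slope was 0.74 ± 0.07 (SE) on the log2 scale per doubling of days, which over the 7.81 doublings between day 1 and day 224 is a fitted 56.2-fold rise (edgeR quasi-likelihood test, adjusted p = 0.0148). The call rested on the ends of the series, with an edgeR adjusted p of 0.539 without the 24-hour pool and 0.515 without the 32-week pool. It was 0.051 with scaling to the total count and 0.476 with days on a linear scale, and between early and late pools the adjusted p was 0.783 in edgeR.

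The neighbouring IgG genes had the same ends but not the same path. Ighg2c, the IgG2c constant gene that C57BL/6 mice carry in place of Ighg2a, was at 2.01, 31.9, 19.8, 42.1 and 184.6 CPM (slope 0.64 ± 0.14, adjusted p = 0.567 in edgeR). Ighg1, the IgG1 constant gene, was at 2.51, 6.15, 10.8, 8.9 and 70.1 CPM (slope 0.57 ± 0.09, adjusted p = 0.308 in edgeR). Both had their lowest pool at 24 hours and their highest at 32 weeks. Ighg3, for IgG3, was at 1.0, 27.9, 3.85, 14.5 and 53.2 CPM, so that its 12-week pool lay below its 1-week pool (slope 0.4 ± 0.23, edgeR adjusted p = 0.906). At 1 week Ighg2c and Ighg3 stood above their 4-week levels, while Ighg2b and Ighg1 stood below theirs.

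**Figure D1:**
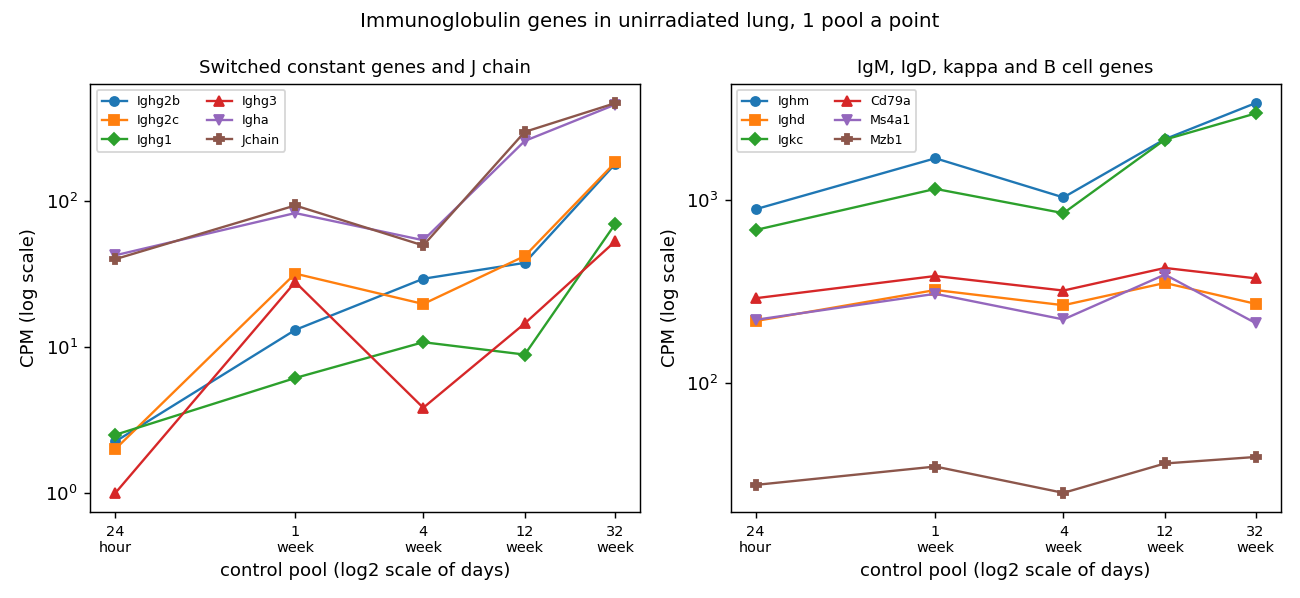
CPM on a log scale against collection time on a log2 scale of days, 1 point per control pool, for switched constant genes and the J chain (left) and for IgM, IgD, kappa and B cell genes (right). Ighg2b ascends at every step from 2.26 to 180.5 CPM, whereas Cd79a and Ms4a1 at 32 weeks lie below their own 12-week levels.

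IgA and its partner were highest in the late pools. Igha, the IgA constant gene (chromosome 12, 113254830 to 113260236, minus strand), was at 42.6, 83, 54, 258.6 and 459 CPM. Jchain, the joining chain, tracked it at 40.1, 93.5, 49.7, 298 and 470 CPM. For both genes the late pools stood well clear of the other 3. The log2 difference between late and early was 2.51 ± 0.36 for Igha (edgeR adjusted p = 0.19) and 2.52 ± 0.39 for Jchain (adjusted p = 0.246 in edgeR), neither of which passed. In FPKM, which divide by both gene length and library size, Igha was at 25.4, 49.7, 31.4, 160.1 and 247, against 0.94, 5.99, 12.9, 17.4 and 74.4 FPKM for Ighg2b. IgA transcripts were thus more abundant than IgG2b transcripts in every pool.

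The mix of isotypes can be read as the share of each constant gene in the summed FPKM of the heavy chain constant genes. IgM held 75.9, 75.1, 70.3, 69.9 and 66.6% in time order. IgD, which marks naive B cells, held 16.6, 13.4, 16.6, 10.1 and 4.63%. IgA held 6.63, 6.6, 6.96, 15.5 and 16%, and IgG2b 0.24, 0.8, 2.86, 1.68 and 4.84%. The IgD share was lowest and the IgG2b share highest at 32 weeks, whereas the IgA share was nearly level over the first 3 pools. These shares have no test, and Ighe was at 0 or 0.01%.

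The kappa chain and IgM were also highest in the last pool. Igkc, the kappa constant gene, was at 686, 1149, 847, 2131 and 2960 CPM (slope 0.26 ± 0.05, edgeR adjusted p = 0.369). Ighm was at 890, 1687, 1032, 2144 and 3370 CPM (slope 0.21 ± 0.05, edgeR adjusted p = 0.567). The tables hold 185 heavy variable segments. Of these, 63 were tested and 47 had both late pools above both early pools (against 17.9% of all genes). For kappa this held for 66 of 73 tested segments out of 160, and for lambda for 3 of 3. The count filter asks for only 2 of the 5 pools, so a segment could be tested through its 2 late pools alone. These counts were therefore set in part by the filter, and their distance from the share of all genes is not evidence of a rise. Summed CPM of heavy and kappa segments were highest at 32 weeks, at 586 and 1199, whereas lambda segments were highest at 12 weeks, at 111.8 against 99.8 at 32 weeks. Iglc2, a lambda constant gene, was at 116, 123, 111.6, 136 and 111.6 CPM (slope 0.0044 ± 0.03, edgeR adjusted p = 0.998), with overlapping early and late pools, unlike Igkc. Another, Iglc3, overlapped too, at 62.4, 79, 62, 85.3 and 67.8 CPM. Iglc1, also for lambda, had both late pools above both early pools like Igkc, at 53.9, 82.4, 53.2, 100.7 and 97.7 CPM (edgeR adjusted p = 0.8 for the slope). None of these segments passed the test, and this grouping of segments was chosen after their values were seen. The most abundant heavy segment held 4.73% of heavy variable CPM at 24 hours (Ighv3-6) and 12.2% at 32 weeks (Ighv1-53). For kappa the corresponding shares were 5.86% (Igkv1-117) and 11.2% (Igkv3-2).

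Surface markers of B cells were less spread over the pools than the secreted products. Cd79a, a signalling chain of the B cell receptor, was at 291, 385, 321, 426 and 374 CPM, and Ms4a1, which encodes CD20, at 222, 308, 223, 392 and 213 CPM. Their early and late ranges overlapped. Of 15 tested B cell markers, 3 had both late pools above both early pools, namely Igkc, Ighm and the transcription factor gene Pax5. Of 14 tested plasma cell and switched immunoglobulin genes, 8 did and 1 was below, with a median slope of 0.126, and 1 gene, Ighg2b, passed the test. That 1 was Prdm1, the regulator of plasma cell identity, at 14.7, 13.2, 12.1, 6.42 and 5.73 CPM. Sdc1, which encodes the plasma cell surface protein CD138 and is also made by epithelium, was at 118, 90.4, 114, 80.3 and 92 CPM. Mzb1, a chaperone of antibody-secreting cells, was at 28, 35.2, 25.3, 36.6 and 39.7 CPM. In bulk samples such as these, more cells of a type and more RNA per cell cannot be told apart.

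Collagen genes had mostly negative slopes. Of 21 tested, 14 had both late pools below both early pools (17.2% of all genes did) and 1, Col15a1, had them above. The median slope was -0.101 and 4 of the 21 descended at every step (0.852% of all genes). Col3a1 (chromosome 1, 45311538 to 45349706, plus strand), the chain of type III collagen, was at 1291, 1176, 820, 510.2 and 427 CPM. Every pool lay below the one before it. Its slope was -0.22 ± 0.04 per doubling of days (edgeR adjusted p = 0.308) and its late minus early difference -1.40 ± 0.19 (edgeR adjusted p = 0.139). Neither passed, and the level at 24 hours was 3.02 times that at 32 weeks.

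Type I collagen also lay lower in both late pools, but not in a steady descent. Col1a2 was at 709, 656, 473, 322 and 365 CPM, and Col1a1 at 310.5, 205, 249, 98.6 and 135 CPM. In both genes the 12-week pool was lowest. Their slopes were -0.15 ± 0.03 and -0.17 ± 0.05, with edgeR adjusted p of 0.437 and 0.606. Among the other chains, Col6a1 went from 157 to 94.4 CPM between 24 hours and 32 weeks, Col5a2 from 46.8 to 18.8 and the basement membrane chain Col4a1 from 199.8 to 98.6. Col6a3 did not share this order, at 39.2 CPM at 24 hours and 42.2 at 32 weeks, nor did Col13a1, at 13.7 and 17.5.

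Of 20 tested matrix proteases, inhibitors and matricellular genes, 8 had both late pools below both early pools and 2 above. The genes given next, other than Postn and Fn1, were named for their small p. Sparc, a collagen-binding matrix protein, was at 844, 656, 612, 472 and 376 CPM (slope -0.14 ± 0.03, edgeR adjusted p = 0.369). Adamts2, the protease that removes the amino-terminal propeptide of fibrillar collagens, was at 91.9, 74.1, 58.1, 47.1 and 40.8 CPM (slope -0.15 ± 0.03, edgeR adjusted p = 0.308). Serpinh1, the collagen chaperone of the endoplasmic reticulum, was at 203, 152, 175.5, 82.3 and 98.5 CPM. Sparc and Adamts2 descended at every step, and Serpinh1 did not, since its 4-week pool was above its 1-week pool. Postn, which encodes the matricellular protein periostin, was at 40.7, 26.2, 29.4, 19.8 and 11.4 CPM. Fn1, for fibronectin, went the other way, with late pools of 563 and 581 CPM above early pools of 510.4 and 445 CPM.

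Elastic fibre genes had all 17 slopes below 0, and 10 of them had both late pools below both early pools. Eln, for elastin, was at 216, 80.8, 154.5, 45.4 and 64.2 CPM, an uneven course with a second high at 4 weeks (slope -0.22 ± 0.07, edgeR adjusted p = 0.692). Mfap5, a microfibril protein, was at 116, 100.9, 80.2, 72.6 and 61.6 CPM and descended at every step (edgeR adjusted p = 0.452). Fbn1, for fibrillin 1, was at 108, 66.1, 105.7, 53.1 and 55 CPM. Lox, the crosslinking lysyl oxidase, was at 17.3, 11.6, 18.2, 10.1 and 8.5 CPM. In Eln, Fbn1 and Lox the 4-week pool resembled the 24-hour pool more than its neighbours in time.

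**Figure D2:**
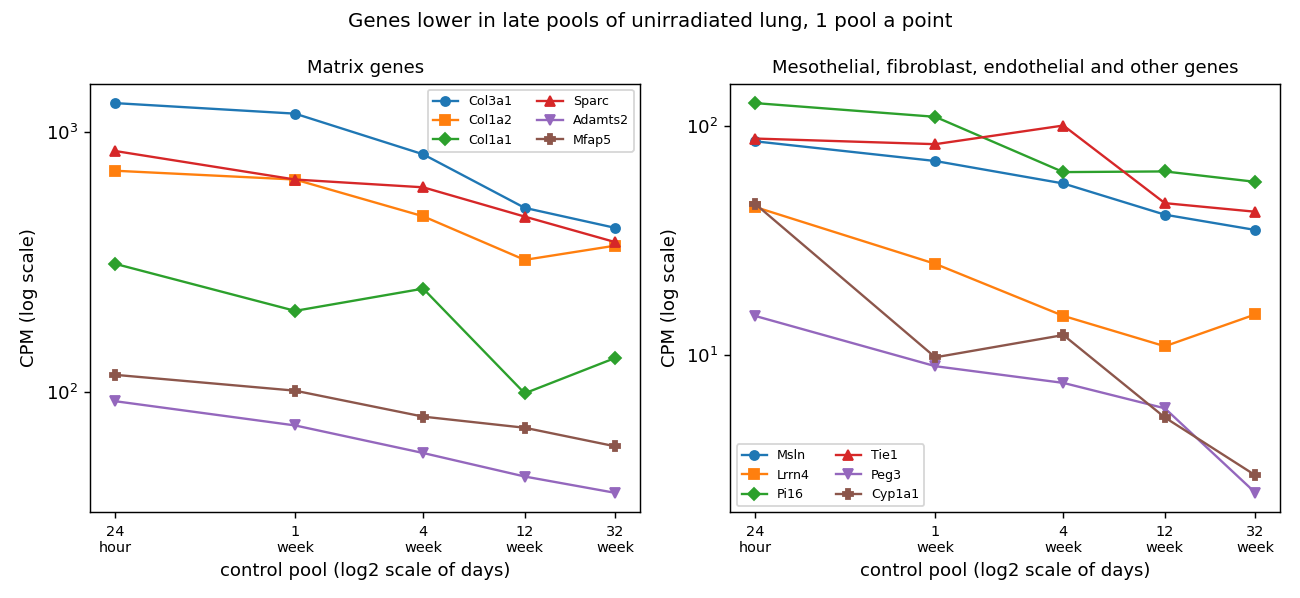
CPM on a log scale against collection time on a log2 scale of days, 1 point per control pool, for matrix genes (left) and for mesothelial, fibroblast, endothelial and other genes (right). Col3a1 descends from 1291 to 427 CPM at every step, while Col1a1 and Tie1 have their 4-week pool above their 1-week pool. None of these genes passed the test.

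Of 16 tested fibroblast markers 12 had a negative slope, with a median of -0.044, and 6 had both late pools below both early pools. Of those 6, Col1a1, Col1a2 and Col3a1 are also in the collagen list. Some markers overlapped between early and late pools. Dcn, for the proteoglycan decorin, was at 888, 902, 507, 907 and 721 CPM, and Pdgfra, a growth factor receptor of lung fibroblasts, at 70, 55.7, 92.5, 57.9 and 67.3 CPM. Pi16, a marker of adventitial fibroblasts, was at 126, 109.6, 62.8, 63.2 and 56.9 CPM (slope -0.16 ± 0.03, edgeR adjusted p = 0.369). Smooth muscle and pericyte markers lay lowest at 12 weeks, at -0.78 in log2 CPM relative to their mean over the 5 pools. The part of that pool's makeup in the matrix values was not tested.

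The mesothelium, the sheet of cells that covers the lung, gave another descending gene. Msln, for mesothelin, was at 85.6, 70.2, 56, 40.9 and 35.1 CPM (slope -0.17 ± 0.03, edgeR adjusted p = 0.308). Lrrn4, a mesothelial membrane protein gene, was at 44.2, 24.9, 14.8, 10.9 and 15 CPM (slope -0.23 ± 0.05, edgeR adjusted p = 0.392). All 8 tested mesothelial markers had a negative slope, and 5 had both late pools below both early pools. Wt1, a transcription factor of mesothelium, was low throughout, at 2.76, 0.58, 1.52, 1.03 and 1.62 CPM, with overlapping groups. The list as a whole was highest at 24 hours, 0.6 in log2 CPM above its mean over the pools, and the 1-week and 4-week pools were near that mean.

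Endothelial markers lay lower in the late pools for 9 of 15 genes, with a median slope of -0.084. Tie1, an endothelial receptor, was at 88, 83.2, 100.4, 45.9 and 42.1 CPM (late minus early -0.96 ± 0.18, edgeR adjusted p = 0.278). Kdr, the receptor of vascular endothelial growth factor, was at 141.5, 114, 137, 87.4 and 65.6 CPM. Vwf, for von Willebrand factor, was not so ordered, at 166, 113, 196, 159.7 and 124 CPM. Among the other genes named by the early and late fit, Stab1, a scavenger receptor of endothelium and macrophages, was at 98.5, 101.2, 82.9, 57.6 and 52.9 CPM. Plpp1, a lipid phosphatase gene, was at 112.5, 96.6, 105.8, 56.6 and 50.3 CPM, and Afap1l1, an actin-associated protein gene, at 88.5, 86.9, 94.6, 52.6 and 45.7 CPM. The list median depended on the last pool and was -0.028 without it.

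Genes of dendritic cells, whose conventional types carry antigen from the lung to lymph nodes, were also mostly lower late. Of 12 tested, 7 had both late pools below both early pools, with a median slope of -0.07. Cd207, for langerin on airway dendritic cells, was at 28.7, 16.8, 11.2, 12.6 and 7.45 CPM (slope -0.22 ± 0.05, edgeR adjusted p = 0.392). Itgae, which encodes the CD103 integrin chain, was at 79.2, 73.4, 43.8, 53.6 and 43.1 CPM, and the chemokine gene Ccl22 at 73.4, 64.3, 38.5, 49.3 and 35 CPM. Siglech, a marker of plasmacytoid dendritic cells, was at 19.6, 35.5, 21.2, 22.6 and 23.6 CPM and did not share the order. The complement genes C1qa, C1qb and C1qc, made by tissue macrophages, all had late pools below early pools. C1qa was at 199.9, 174, 115.8, 105.8 and 127 CPM (edgeR adjusted p = 0.633). They belong to 16 tested monocyte and interstitial macrophage markers, of which 5 had late pools below and 2 above, with a median slope of -0.027. Ccl8 of that list was above, at 13.99, 14.05, 14.22, 22.76 and 17.76 CPM. Csf1r overlapped, at 652.8, 831.7, 545, 742.1 and 533.6 CPM. Itgad, the integrin chain CD11d of macrophages, stood higher late, at 13.5, 12.4, 9.39, 41.5 and 32.8 CPM.

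Airway genes lay higher in the late pools. Club cells secrete uteroglobin and detoxify inhaled compounds, and 8 of 12 of their tested markers had both late pools above both early pools, with 0 below. Scgb1a1, for uteroglobin (chromosome 19, 9083636 to 9087958, minus strand), was at 3203, 2768, 11620, 6848 and 9814 CPM. The 4-week pool was the highest, so the step lay between 1 and 4 weeks rather than at the end. Late minus early was 1.48 ± 0.24 (edgeR adjusted p = 0.246). Cyp2f2, a club cell monooxygenase, was at 560.3, 673, 1526, 1104 and 1026 CPM and Scgb3a2, a secretoglobin, at 165, 167, 407, 232.5 and 365 CPM.

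Ciliated cell genes had the same shape. Of 12 tested markers, 10 had both late pools above both early pools, 0 had them below, and the median slope was 0.116. Rsph1, a radial spoke protein of cilia, was at 34.3, 39.7, 81.1, 61.2 and 65.4 CPM, and Ccdc153, a gene of ciliated cells, at 47.8, 44.3, 124, 95.1 and 82.7 CPM. Foxj1, the transcription factor of motile cilia, was at 17.2, 13.9, 43.1, 10.95 and 27.6 CPM, and its 12-week pool was below both early pools. Alveolar type 2 markers had 15 of 15 slopes below 0, yet none had its late pools beyond its early pools. Sftpc, for surfactant protein C, was at 32860, 22770, 21230, 27130 and 19160 CPM. The amount of airway tissue in each suspension was not measured, and its part in the airway values was not tested.

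Cyp2b10 and Cyp2a5, xenobiotic monooxygenases, were also higher late. Cyp2b10 was at 50.7, 52, 104.1, 114 and 104.1 CPM (late minus early 1.09 ± 0.18, edgeR adjusted p = 0.246), with the same step after 1 week as the club cell genes. Cyp2a5 was at 28, 51.8, 53.1, 60.2 and 86.4 CPM (slope 0.18 ± 0.03, edgeR adjusted p = 0.369), ascending at every step. Their near relatives in the same gene families can share fragments with them, so these levels are uncertain to that extent.

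**Figure D3:**
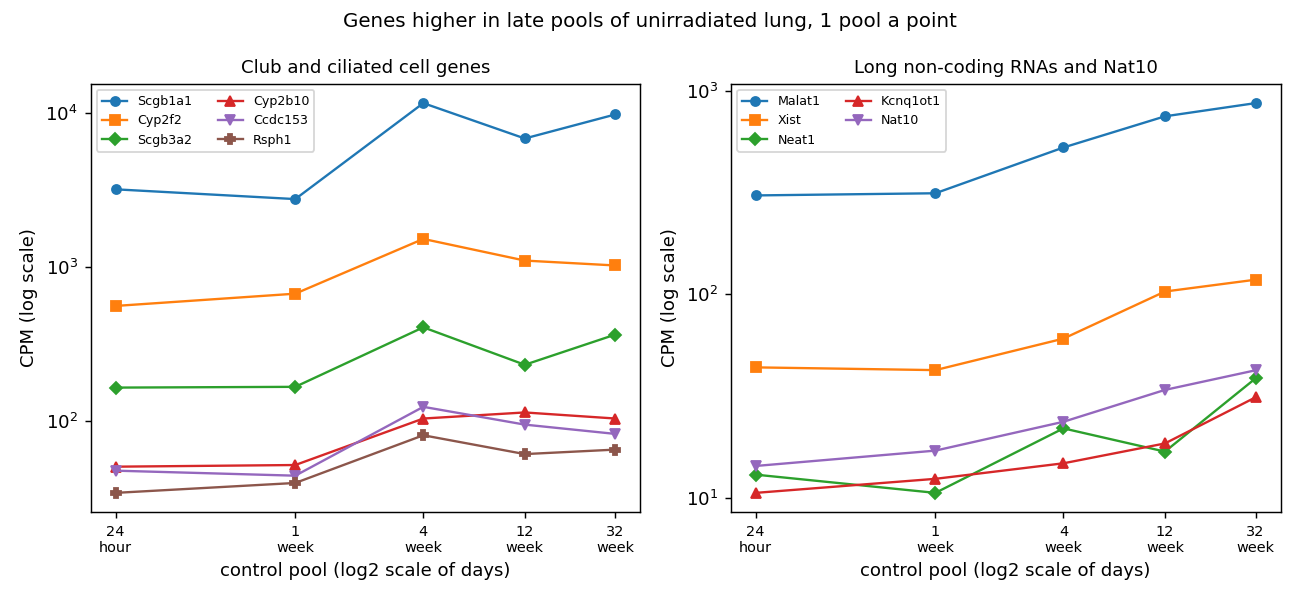
CPM on a log scale against collection time on a log2 scale of days, 1 point per control pool, for club and ciliated cell genes and Cyp2b10 (left) and for long non-coding RNAs and Nat10 (right). Scgb1a1 is highest at 4 weeks (11620 CPM), whereas Malat1 is highest at 32 weeks (871 CPM). None of these genes passed the test.

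Some long non-coding RNAs of the nucleus lay higher in both late pools than in both early pools, and none passed the test. Malat1 (chromosome 19, 5795690 to 5802672, minus strand), a nuclear RNA of speckles, was at 306, 314, 527, 750.3 and 871 CPM. Its slope was 0.21 ± 0.03 (edgeR adjusted p = 0.308) and its late minus early difference 1.39 ± 0.18 (edgeR adjusted p = 0.139). Gm37376 gave the same picture at 138, 142, 259, 354 and 419.6 CPM. That gene (5801941 to 5802393, plus strand) lies within Malat1 on the opposite strand, and the library chemistry does not mark the strand, so both may count the same fragments.

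Xist, the RNA that coats the inactive X chromosome, was at 43.7, 42.4, 60.6, 103.2 and 118 CPM (late minus early 1.36 ± 0.18, edgeR adjusted p = 0.139). Tsix, its antisense partner, was at 9.89, 8.15, 16.2, 18.6 and 28.3 CPM and cannot be told apart from it where they overlap. The 4 Y-linked genes examined, Kdm5d, Uty, Ddx3y and Eif2s3y, had 0 fragments in all 5 pools. Neat1, the RNA of paraspeckles, was at 13, 10.6, 21.9, 16.9 and 38.6 CPM, and the imprinted RNA Kcnq1ot1 at 10.6, 12.4, 14.8, 18.5 and 31.1 CPM. Nat10, which encodes an RNA acetyltransferase of the nucleolus, was at 14.3, 17, 23.6, 33.9 and 42.3 CPM (slope 0.21 ± 0.04, edgeR adjusted p = 0.349). Mitochondrial transcripts took 1.69, 1.48, 1.48, 1.6 and 2.16% of counts, with the highest share at 32 weeks. The part of RNA quality in these values was not tested.

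Cyp1a1, a monooxygenase induced through the aryl hydrocarbon receptor, had the smallest p among genes with a negative slope. It was at 45.5, 9.72, 12.2, 5.31 and 2.96 CPM, from 674, 151, 185, 45 and 53 fragments. The 24-hour pool stood 1.86 in log2 CPM above the nearest other pool, and the remaining pools were low. The slope was -0.46 ± 0.06 (edgeR adjusted p = 0.279), and the gene passed in DESeq2, with no filter on low counts and without the 4-week pool. Cyp1b1, another target of that receptor, was at 6.45, 7.07, 6.8, 2.99 and 6.3 CPM, with no such high pool at 24 hours. The window from 250 bases before to 50 after the Cyp1a1 start site (RefSeq, GRCm38.p6, plus strand) is shown with the receptor's core motif GCGTG in capitals.
Cyp1a1, chr9:57697363-57697662: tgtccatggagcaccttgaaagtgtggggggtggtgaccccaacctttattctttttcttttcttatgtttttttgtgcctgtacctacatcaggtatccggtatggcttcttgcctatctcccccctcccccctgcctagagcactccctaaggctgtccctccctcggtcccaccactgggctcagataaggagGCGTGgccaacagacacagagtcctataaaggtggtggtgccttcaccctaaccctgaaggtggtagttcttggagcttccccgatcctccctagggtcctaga
On either strand, GCGTG occurs in 32.4% of 32851 promoter windows of this length, so a match is common.

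Imprinted genes active in growth included members that descended. Peg3 was at 14.7, 8.89, 7.52, 5.82 and 2.48 CPM (slope -0.27 ± 0.06, edgeR adjusted p = 0.522). Mest was at 7.79, 6.57, 5.01, 2.82 and 0.86 CPM, from 115, 102, 76, 24 and 16 fragments (slope -0.33 ± 0.09, edgeR adjusted p = 0.606). Both descended at every step, and they were the only descending genes of the 13 tested in that list. Igf2, the fetal growth factor gene, was low in all pools, between 0.94 and 2.96 CPM, and H19 and Dlk1 did not reach the count filter. Igf1 was at 28.7, 27, 14.6, 31.3 and 22 CPM, with overlapping groups.

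Thymocyte genes separated the pools of 4 and 32 weeks from the other 3. Rag1, which cuts antigen receptor genes in developing lymphocytes, was at 4.94, 4.24, 88, 9.75 and 126.5 CPM, from 73, 66, 1335, 82 and 2297 fragments. Dntt, a polymerase that adds bases at the joints, was at 24.8, 7.9, 137, 20.7 and 116 CPM. T cell markers were high in the same pools, with Cd8b1 at 65.3, 87.3, 180.3, 81.9 and 181 CPM and Cd4 at 24, 34.2, 62.1, 24.7 and 82.9 CPM. In contrast Prss16, a protease of thymic epithelium, was high at 32 weeks alone, with 4, 9, 11, 12 and 117 fragments. Since 4 weeks was high and 12 weeks low, Rag1, Dntt, Cd8b1 and Cd4 did not rise steadily with time. Of 8 tested thymocyte genes, 7 had a positive slope (median 0.237), 3 had both late pools above both early pools and 1 below. No thymocyte gene passed. Of 19 tested T cell markers, 17 had a positive slope, and 2, Cd28 and Cd3d, had both late pools above both early pools.

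Red cell transcripts had the opposite pattern. Haemoglobin genes took 4.05, 6.67, 1.88, 3.31 and 0.803% of counts, lowest at 4 and 32 weeks. Hba-a1, an alpha globin gene with the near-identical copy Hba-a2, was at 9063, 16570, 4030, 6791 and 1902 CPM. Slc4a1, the anion exchanger of red cells, was at 14.4, 12, 4.21, 19.7 and 0.19 CPM, with 3 fragments at 32 weeks. The immunoglobulin share of counts was 0.24, 0.412, 0.319, 0.643 and 1.02% in time order. The part of thymic tissue in that share and in the Ighg2b levels was not tested. Mean levels of club and ciliated cell markers were highest at 4 and 32 weeks, as were those of thymocyte genes. Some airway genes differed, with Cyp2f2 and Ccdc153 higher at 12 weeks (1104 and 95.1 CPM) than at 32 weeks (1026 and 82.7 CPM). Whether the makeup of the suspensions took part in the airway values was not tested. The part of the makeup of the suspensions in the collagen values was not tested either.

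**Figure D4:**
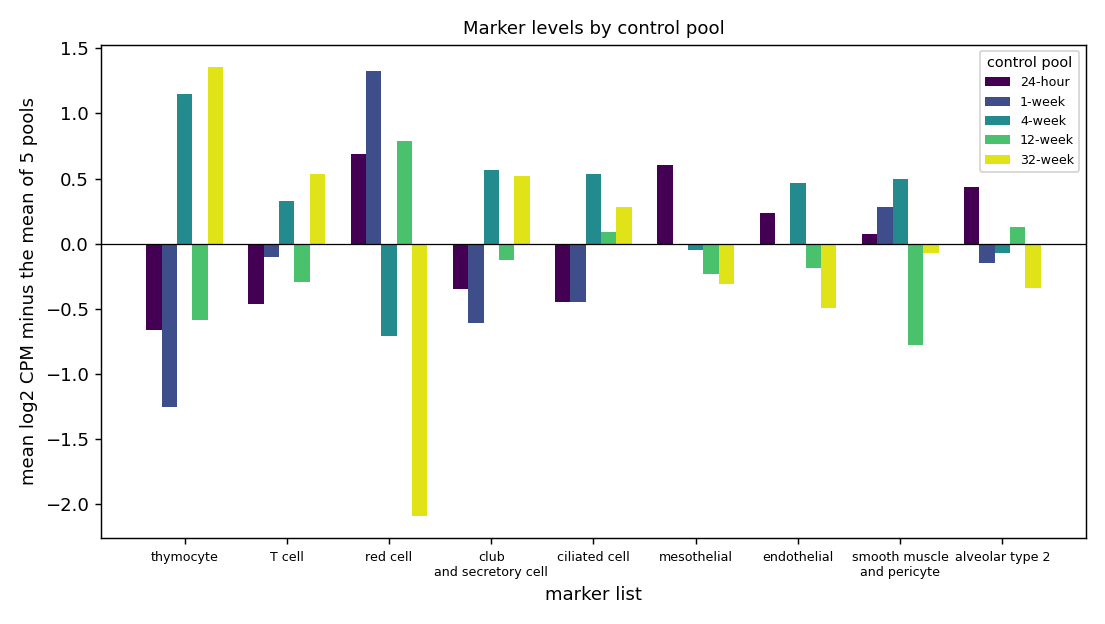
Mean log2 CPM of 9 marker lists in each control pool, as the difference from the mean of the 5 pools (bars, 1 per pool). Thymocyte genes are 1.15 and 1.36 above their mean at 4 and 32 weeks, where red cell genes stand at -0.71 and -2.09.

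Other pathways had members with late pools above and members with late pools below the early pools, or few of either. Over all tested genes these shares were 17.9% above and 17.2% below. Of 22 interferon-stimulated genes 3 had their late pools above and 3 below the early pools, and of 20 replication genes 1 and 2. Of 32 ribosomal protein genes 0 were above and 1 was below. Of 21 senescence and p53 target genes 6 were above and 4 below, and Cdkn1a, for the cell cycle inhibitor p21, was at 76.1, 74.6, 60.7, 48.7 and 70.5 CPM. Cdkn2a, the senescence gene for p16, had 0 fragments in 4 pools and 1 at 32 weeks, which is under the floor of 3 fragments. Among 25 cell cycle genes 7 were above and 4 below, with Top2a, for topoisomerase II alpha, at 53.7, 61.1, 79.4, 65.5 and 110.5 CPM. Mki67, a gene of dividing cells, had overlapping groups, at 15.08, 21.86, 31.67, 9.84 and 41.45 CPM, with its 12-week pool below both early pools. Tgfb1, the main fibrogenic cytokine, was at 87.1, 62.1, 85.1, 57.2 and 96.9 CPM, with overlapping groups.

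**Figure D5:**
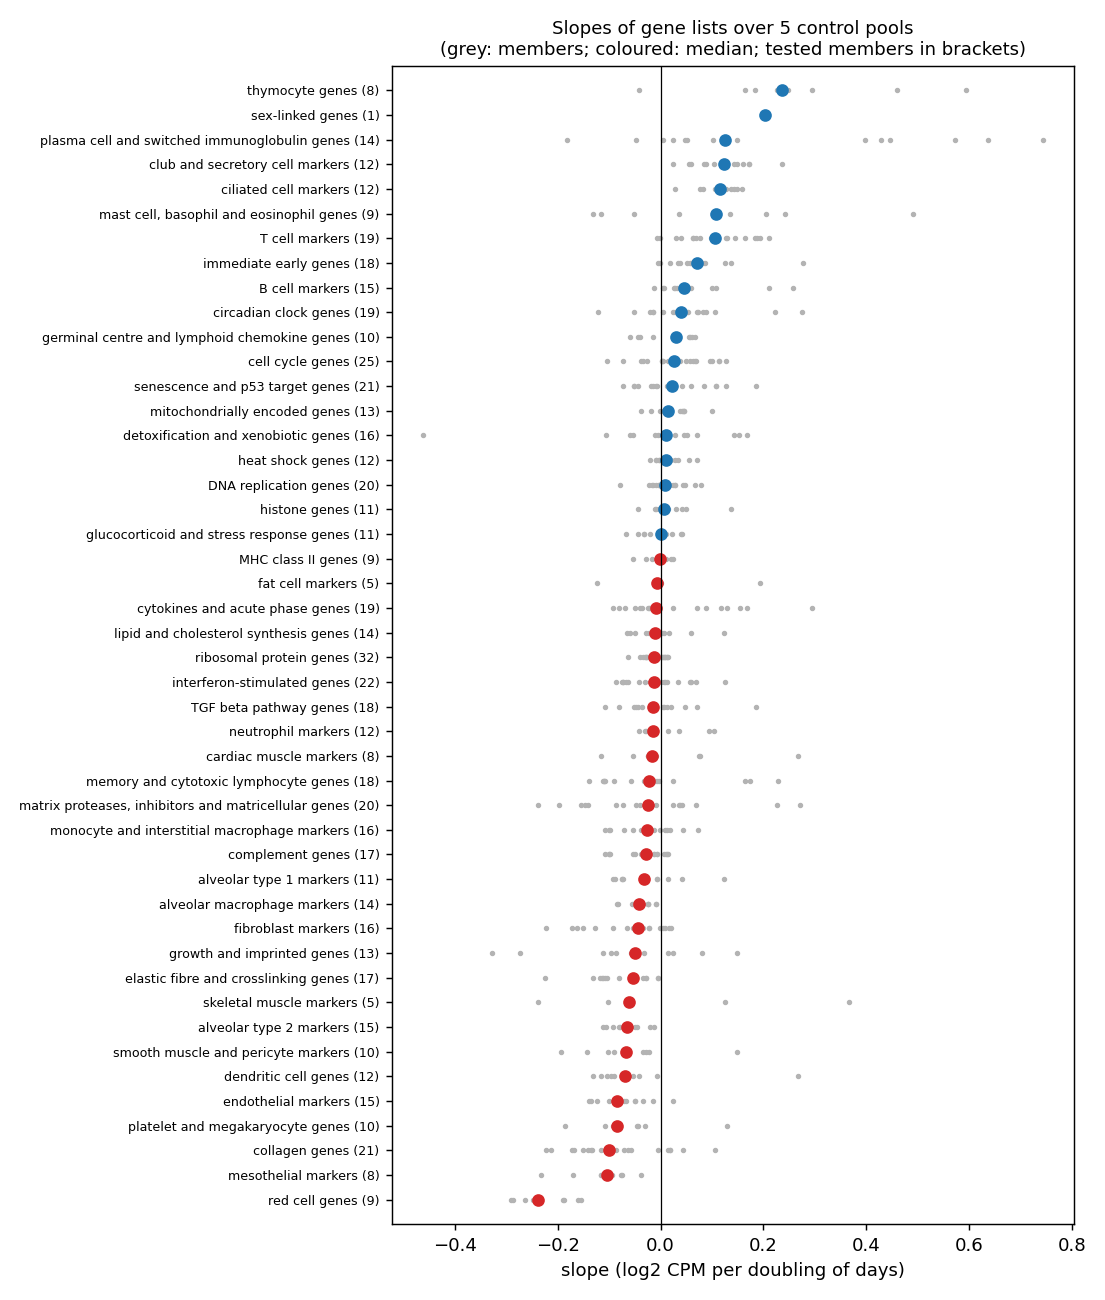
Slope of log2 CPM per doubling of days for each tested member (grey points) and the median (coloured points) of 46 gene lists over the 5 control pools, with the number tested in brackets. Plasma cell, club and ciliated cell lists have medians of 0.126, 0.124 and 0.116, and collagen and mesothelial lists of -0.101 and -0.105. Medians have no test, and 17 of them, each at most 0.062 in size, change sign under at least 1 other scaling or without 1 pool.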

How the data were processed

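Transcripts were measured by RNA sequencing in 5 pools of unirradiated lung. RNA was purified with Qiagen RNeasy PLUS, and libraries came from Clontech ultralow and Illumina NexteraXT kits, per the labels' protocols. No molecular identifiers are named, so floors cover counting error only. The submitters' processing notes list Trimmomatic 0.32, STAR 2.4.2a, Cufflinks 2.0.2, a Cuffdiff without version and the build GRCm38.p4. Their roles and the annotation are not stated. Expected counts and FPKM values were deposited by the authors for 45786 genes. The deposited counts share a scale between libraries, since 73.9% to 81.8% of values lay within 0.05 of whole multiples of a step (0.5763 to 1.3847). Division by the step gave fragments. GENCODE M21 matched 45223 gene identifiers, and the other 563 took 0.111% to 0.135% of counts.

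Counts were rounded and normalized by TMM (factors 0.961 to 1.052). Tested genes reached 10 counts, at the median library size, in at least 2 of 5 pools with a total of at least 15. Quasi-likelihood tests were 2-sided with robust dispersion (edgeR 4.0.16, R 4.3.3) and Benjamini-Hochberg adjustment over all tested genes at a threshold of 0.05. The slope over log2 days left 3 residual degrees of freedom (common dispersion 0.0547), and late against early left 2 (0.0551). Alternatives were DESeq2 1.42.0, limma 3.58.1 on log2(FPKM + 1) and log2(FPKM + 0.1), other scalings, filters and time scales, and leaving out each pool. P-values here rest on differences between single libraries, biological and technical alike. The fits were tested on simulated data.

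Members and lists were chosen with earlier results of these data known, so lists have counts and medians but no test. Named genes have a mean of at least 5 CPM: 12 of each direction for the slope and 10 for late against early, filled by smallest p where fewer passed, and the 5 farthest above and below the others in each pool. A set always named and 2 to 4 members of each list are added. Further genes, among them Neat1, Kcnq1ot1, Tsix, Itgad, Prss16 and other list members, were named after their values were seen.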

Additional observations from a re-analysis of the deposited data

Results flagged for a closer look

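Of 84 values examined over the 5 pools, 1 had a pool far from the others by Dixon's criterion. The mean log2 CPM of MHC class II genes was 9.2, 9.33, 8.85, 9.22 and 9.22 in time order, and the gap below the other pools at 4 weeks took 0.729 of the whole range, against a critical value of 0.71. H2-Aa, which encodes a class II alpha chain, was at 2570, 2641, 1890, 2870 and 2494 CPM. The same 4-week pool was the lowest for Cd74, the class II invariant chain, at 10670, 12620, 8881, 11710 and 12910 CPM. Chance flags about 1 in 20 groups.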

How the results depend on the processing

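The 1 gene called for the slope, Ighg2b, was also the 1 called with DESeq2 size factors, with recovered fragments, without robust estimation, over time order and with limma on FPKM at either pseudocount. With total count scaling 0 genes were called. No filter on low counts called 10 (8 higher, 2 lower), DESeq2 called 58 (44 higher, 14 lower), and linear days called 3, all higher (Igkv3-5, Igkv1-117 and Igkv3-2). Leaving out each pool gave 0 to 6 called genes, 0 to 5 higher and 0 to 1 lower. Between early and late, 0 were called, against 68 with no filter (54 higher, 14 lower), 70 with DESeq2 (56 and 14), 25 with limma on log2(FPKM + 1) (19 and 6) and 19 on log2(FPKM + 0.1) (15 and 4). Leaving out each pool gave 0 to 34, 0 to 28 higher and 0 to 6 lower. Placing the 4-week pool in either group or in one of its own left 0. The causes were not tested. No paired analysis was possible because the labels carry no replicate numbers and each time has 1 control pool.

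Without each pool in turn, median slopes ran from -0.113 to -0.059 for dendritic, -0.127 to -0.028 for endothelial, -0.12 to -0.082 for mesothelial, -0.101 to -0.044 for elastic fibre and -0.118 to -0.076 for collagen genes. They ran from 0.106 to 0.156 for plasma cell, 0.077 to 0.163 for club cell, 0.1 to 0.151 for ciliated cell, 0.074 to 0.144 for T cell and 0.166 to 0.349 for thymocyte genes, and from -0.433 to -0.074 for red cell genes. No gene named by its slope or its late minus early difference turned its sign, nor did these 11 medians. Of the 46 list medians, 17 others, each at most 0.062 in size, changed sign under at least 1 scaling or without 1 pool. The median slope of all tested genes, near 0 at -2e-04, was 0.0133 with total count scaling, 0.0048 with no filter, and -0.0159 and -0.0219 with limma on log2(FPKM + 1) and log2(FPKM + 0.1). By size, 16 list medians moved beyond their spread without the 24-hour pool, 11 without the 32-week pool, 5 without the 12-week pool and 1 with total count scaling. At 8679515 fragments the 12-week pool sets the coarsest floor, 0.346 CPM for 3 fragments.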

Other observations

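Each pool had genes of its own. At 12 weeks the macrophage elastase gene Mmp12 was at 163 CPM against 26.9 to 47.1 in the other pools, and Arg1, for arginase 1 of alternatively activated macrophages, at 34.4 against 6.5 to 10.8. Of the tested genes, 50 were at least 2-fold above and 179 at least 2-fold below all other pools at 12 weeks, the shallowest library. At 32 weeks these counts were 82 and 83, and at 24 hours 7 and 47. Plac9b had 0 fragments at 12 weeks and 475 to 951 in the other pools. At 4 weeks Cfap57, a cilia-associated gene, was at 39.7 CPM against 10.3 to 17.4. At 1 week Slc7a11, the cystine transporter gene, was at 2.49 CPM against 8.39 to 32.6.

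Genes of basophils, mast cells and eosinophils differed in their order. Mcpt8, a basophil protease, was at 0.5, 1.83, 2.42, 7.44 and 6.59 CPM, from 8, 28, 36, 63 and 120 fragments (slope 0.49 ± 0.09, edgeR adjusted p = 0.359). Prg2, for eosinophil major basic protein, was at 1.26, 1.33, 1.16, 2.82 and 4.68 CPM. Gata2, of the same list, had both late pools below both early pools, at 29.65, 26.6, 30.24, 14.72 and 15.28 CPM. Cma1, also of that list, overlapped between early and late pools, at 17.09, 17.04, 10.65, 17.62 and 11.65 CPM. Of 9 tested genes of this list, 4 had both late pools above both early pools and 2 below. Of 18 tested memory and cytotoxic lymphocyte genes, 2 had both late pools above both early pools and 5 below, with a median slope of -0.022. Klrb1c, which encodes the NK1.1 receptor of natural killer cells, was lowest at 32 weeks, at 57.8, 67.8, 61, 59 and 23.3 CPM. Gzma, a granzyme gene, was lowest there too, at 279.7, 243, 256, 246 and 113 CPM. Gzmk, another granzyme gene, was highest there, at 1.17, 1.83, 1.61, 2.82 and 3.06 CPM. Immediate early genes, which respond within minutes to handling of tissue, had 16 of 18 slopes above 0. Fos was at 224, 318, 415, 285.5 and 518 CPM, and none of the 18 had its late pools beyond its early pools.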
